A study of Mus musculus with 12 samples.

Results

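The IL-6 family of cytokines and its STAT3 pathway are described here by 10 genes, taken by symbol from a fixed list. That list was drawn up with earlier results of these data known. All 10 are among the 25093 genes of the count table. They are the ligands *Il6*, *Lif* and *Osm*, the receptor chains *Il6ra*, *Il6st*, *Lifr* and *Osmr*, the kinase *Jak2*, the transcription factor *Stat3* and the feedback inhibitor *Socs3*. They were followed in mouse muscle stem cells (satellite cells) with and without *Gli3*, which encodes a Hedgehog transcription factor, in RNA-sequencing libraries of 4 groups of 3.

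Control mice (Gli3+/+) were Pax7-CreERT2/+;Gli3+/+;R26R-YFP, and Gli3∆/∆ mice were Pax7-CreERT2/+;Gli3fl/fl;R26R-YFP, all 3 to 4 months old and of mixed 129SV and C57BL/6 background. Both genotypes therefore carried the Cre recombinase, expressed from the *Pax7* locus of satellite cells, and the YFP reporter, and both received tamoxifen, as injections on 4 days and then in the diet. Quiescent satellite cells (QSCs) were sorted from uninjured hindlimb muscles as α7-Integrin+ CD34+ cells without endothelial, blood or SCA1 surface markers, and each library pooled 2 to 3 mice. The paper states that cell sorting partly activates these cells, and it uses QSC as a name for freshly isolated cells. Activated satellite cells (ASCs) were sorted as α7-Integrin+ VCAM1+ cells 3 days after cardiotoxin, a toxin that kills muscle fibres, from 1 mouse per library. The columns of the 6 ASC libraries could not be matched to genotypes and were not compared. The tests below are therefore those of the 6 QSC libraries, and the ASC libraries enter only through the authors' mean over all 12 libraries.

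In this pathway each ligand signals through a receptor chain of its own, IL-6 through IL-6Rα, LIF through LIFR and oncostatin M through OSMR, in a complex with the shared signalling chain gp130, the product of *Il6st*. Kinases of the JAK family, held on the receptors, phosphorylate STAT3, which enters the nucleus and binds DNA at palindromic TTCNNNGAA sites. One of its targets is *Socs3*, whose product binds gp130 and the kinase and shuts the signal off. In satellite cells the pathway is known for its part in proliferation, differentiation and the loss of stem cells with age.

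The Gli3 deletion itself could not be seen in these QSC counts, which are per gene, while only exon 8 is removed. *Gli3* was counted at 11.2, 9.71 and 9.75 CPM (library-size-scaled counts, after TMM normalisation) in Gli3+/+ QSCs and at 9.54, 10.5 and 6.26 CPM in Gli3∆/∆ QSCs, a log2 fold change of −0.22 ± 0.22 (SE; adjusted p = 0.916, edgeR quasi-likelihood test with Benjamini-Hochberg adjustment over all genes). The genotypes overlapped, so within these counts the groups rest on their labels. The paper reports RT-qPCR evidence of the excision in QSCs, and lower *Gli3* in its RNA-sequencing of Gli3∆/∆ ASCs. None of 9 satellite cell marker genes was at 0 in any library, and *Pax7* stood at 991 ± 92.7 CPM (SD, n = 3) in Gli3+/+ and 967 ± 181 CPM (n = 3) in Gli3∆/∆ QSCs. No endothelial, fibro-adipogenic, mural or Schwann cell marker was at 0 either, so presence alone cannot check identity. Of the satellite cell markers, *Itga7* and *Cd34* encode surface proteins used in the sort. The libraries held between 39556784 and 65750131 estimated counts. Gli3+/+ replicate 3 stood slightly apart, with a mean correlation of 0.968 with the other 5 libraries against 0.976 to 0.977 for each of these. It had the highest summed mural (428 CPM, the others 148 to 218 CPM) and fibro-adipogenic markers (887 CPM, the others 550 to 799 CPM). Of these markers, only *Acta2* (347 CPM), *Myh11* (27.6 CPM) and *Col1a1* (332 CPM) were themselves highest in this library. The others, such as *Rgs5* and *Pdgfrb*, were not, and *Pdgfra* (1.65 CPM) was the lowest of all libraries. The satellite cell sum of Gli3+/+ replicate 3 was also the highest (6431 CPM, the others 3971 to 4698 CPM), with *Sdc4* alone at 2714 CPM. Its endothelial sum (157 CPM) was within the range of the others (135 to 216 CPM). The part of these cells in its values was not tested. Summed macrophage and monocyte markers lay between 12.1 and 29.0 CPM in Gli3+/+ and between 10.8 and 17.7 CPM in Gli3∆/∆ libraries, with 7 of the 8 markers above 0 in each library and *Itgam* at 0 in Gli3∆/∆ replicate 3, and 5 of 5 Schwann cell markers were lower in Gli3∆/∆ without overlap, with sums of 70.2 to 103 CPM against 33.9 to 49.3 CPM. In sorted bulk samples, fewer cells of a type and less RNA per cell cannot be told apart. The labels do not say that the libraries of a group come from separate sorts, so the p-values measure the spread between these libraries.

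Because *Socs3* stood far above the other members and is a known target of STAT3, the sequence before its start is shown. It runs from 250 to 86 bases upstream of the RefSeq transcript start (RefSeq, GRCm38.p6, chr11:117969452-117969616, minus strand, 5′ to 3′). GENCODE vM21 places no exon in this window, though longer annotated transcripts of *Socs3* begin further upstream. Capitals mark the match to TTCNNNGAA.

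Socs3 upstream: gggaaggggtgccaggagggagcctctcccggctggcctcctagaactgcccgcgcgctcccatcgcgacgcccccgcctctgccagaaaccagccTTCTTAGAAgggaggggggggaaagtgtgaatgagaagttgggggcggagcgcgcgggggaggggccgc

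The match begins 154 bases before the start, and the motif reads the same on both strands. Over windows of 250 bases before to 50 bases after the start, 2726 of 32851 RefSeq promoters (8.3%) held TTCNNNGAA. Of the members, 9 had an entry in the promoter table, with 10 promoters between them, since *Lifr* has a pair, and only that of *Socs3* held the motif. With 4 free bases between TTC and GAA in place of 3, a match occurred in 6.95% of all promoters and in none of the 10, and the stricter TTCCNGGAA, whose matches are also matches of TTCNNNGAA, in 1.15% and in none of the 10. A match describes letters in a window, and binding was not measured.

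The members spanned a wide range of levels in freshly sorted QSCs, and the inhibitor led. In these libraries the 12 genes of the dissociation response, early genes that rise while muscle is digested, summed to 44680 to 61730 CPM. The part of dissociation in the level of *Socs3* was not tested. Levels of different genes were compared as CPM per kilobase of exon. In Gli3+/+ QSCs *Socs3* stood at 825 ± 23.0 CPM per kilobase (SD, n = 3 here and for each level that follows). The shared chain *Il6st* came next at 32.5 ± 1.76, *Stat3* at 26.6 ± 8.42, *Jak2* at 9.85 ± 1.47 and *Lifr* at 9.65 ± 3.46 CPM per kilobase. The other receptor chains were lower, *Osmr* at 2.10 ± 0.841 and *Il6ra* at 0.590 ± 0.472 CPM per kilobase. The ligands were low throughout, *Lif* at 1.53 ± 0.857, *Il6* at 0.300 ± 0.188 and *Osm* at 0.0730 ± 0.0704 CPM per kilobase.

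Of the neighbours in this order, *Socs3* and *Il6st*, *Stat3* and *Jak2*, and *Lifr* and *Osmr* did not overlap over the 6 QSC libraries of both genotypes. The other neighbours overlapped. *Il6st* exceeded *Stat3* in 5 of 6 libraries, *Jak2* exceeded *Lifr* in 3 of 6, *Osmr* exceeded *Lif* in 4 of 6 and *Il6ra* exceeded *Il6* in 3 of 6. *Lif* was above *Il6ra*, and *Il6* above *Osm*, within each of the 6 libraries although the ranges over libraries overlapped. In Gli3∆/∆ QSCs the order was the same except that *Lifr* stood above *Jak2* and *Il6* above *Il6ra*. The length used matters for part of this order, since with the longest transcript in place of all exons *Stat3* (42.0 CPM per kilobase) and *Il6st* (41.6 CPM per kilobase) traded places and only 6 of the 10 members kept theirs.

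**Figure D1:**
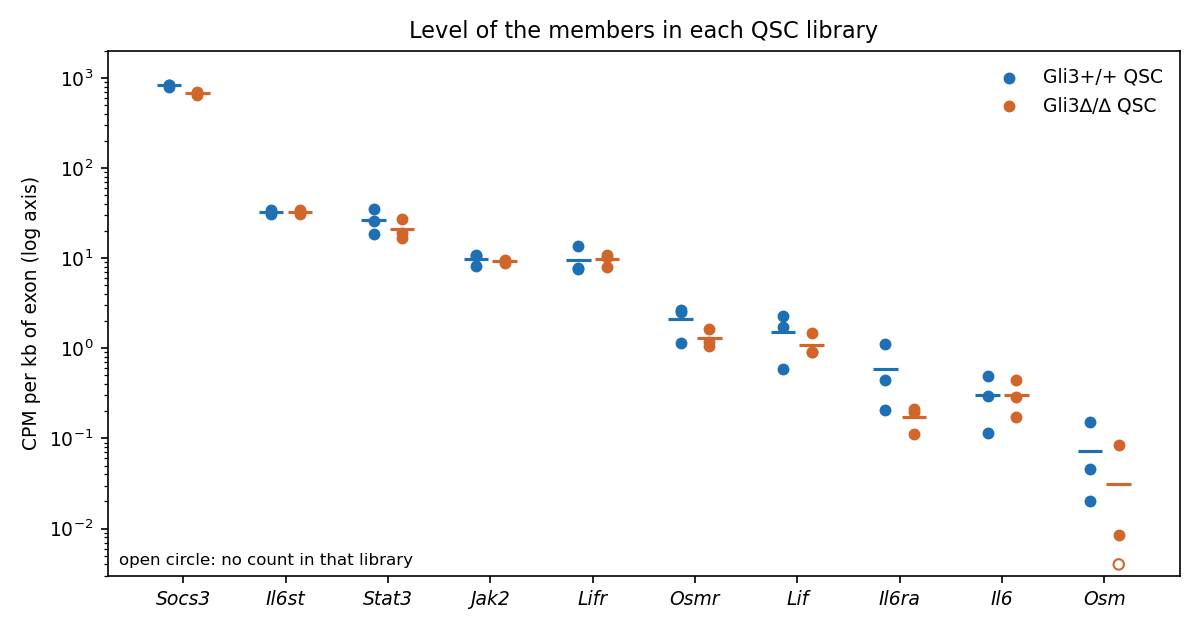
Level of each member in each of the 6 QSC libraries, in CPM per kilobase of exon on a log axis, with members ordered by their mean in Gli3+/+ QSCs. Blue points are Gli3+/+ and orange points Gli3∆/∆ libraries, short lines are group means (n = 3), and the open circle is the library without a count of *Osm*, so that *Socs3* (825 CPM per kilobase in Gli3+/+) stands apart from all others and *Osm* (0.0730) is lowest.

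With *Gli3* deleted, edgeR called none of the 10 members (adjusted p under 0.05 together with a change of 1.2-fold or more), where it called 0.351% of all 25093 genes, 0.187% as higher and 0.163% as lower in Gli3∆/∆. DESeq2 also called 0 members, and called 1.64% of the 23369 genes to which it gave an adjusted p. At an unadjusted p under 0.05 were 2 members, *Il6ra* and *Socs3*, where 7.11% of all genes were. The mean was lower in Gli3∆/∆ QSCs for 7 members and higher for 3, and the median log2 fold change was −0.32 over the members and −0.03 over all genes. Only *Socs3* had groups that did not overlap, in the direction in which 6.57% of all genes did (6.39% were higher without overlap, and 13% did not overlap in either direction).

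Among the ligands, *Lif* (chr11:4257557-4272514, plus strand, GRCm38), which acts through LIFR and gp130, was counted at 9.91, 2.59 and 7.50 CPM in Gli3+/+ and at 3.99, 6.36 and 3.97 CPM in Gli3∆/∆ QSCs. The groups overlapped, and Gli3+/+ replicate 2 was the lowest of all libraries. The log2 fold change of *Lif* was −0.47 ± 0.44 (SE), with a 95% interval from −1.47 to 0.52 (adjusted p = 0.910, edgeR quasi-likelihood test). It was −0.07 without Gli3+/+ replicate 1 and −0.86 without Gli3+/+ replicate 2.

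*Il6* (chr5:30013114-30019981, plus strand), the founding cytokine of the family, gave 48, 48 and 12 counts in the Gli3+/+ libraries and 22, 73 and 36 counts in the Gli3∆/∆ libraries, or 1.19, 0.711 and 0.279 CPM against 0.420, 1.09 and 0.708 CPM. The genotypes overlapped over nearly their whole range. The log2 fold change was 0.03 ± 0.57 (SE), and its 95% interval ran from −1.25 to 1.32 (adjusted p = 1, edgeR quasi-likelihood test).

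*Osm* (chr11:4236420-4241026, plus strand), which encodes oncostatin M and lies 16.5 kb from *Lif*, gave 14, 7 and 2 counts in Gli3+/+ and 1, 13 and 0 counts in Gli3∆/∆ libraries. The 0 of Gli3∆/∆ replicate 3 allows a level of up to 0.0595 CPM, the worth of 3 counts there, for counting error only. The highest values of *Il6*, *Lif* and *Osm* among Gli3+/+ libraries were all in replicate 1, which also had the highest summed macrophage (29.0 CPM) and neutrophil (20.9 CPM) markers of the 6 libraries. Its summed dissociation response genes were the highest too (61730 CPM). Among Gli3∆/∆ libraries these ligands were all highest in replicate 2. That library had the highest neutrophil sum of its genotype (9.59 CPM), but its macrophage sum (14.3 CPM) was below that of replicate 1 (17.7 CPM). The part of these cells, and of the dissociation response, in the ligand counts was not tested.

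Among the receptor chains, the shared *Il6st* (chr13:112464070-112510086, plus strand) had nearly the same mean in both genotypes. It stood at 344, 382 and 358 CPM in Gli3+/+ and 365, 343 and 383 CPM in Gli3∆/∆ QSCs, and the groups overlapped. Its log2 fold change was 0.01 ± 0.13 (SE), with a 95% interval from −0.27 to 0.29 (adjusted p = 1, edgeR quasi-likelihood test). *Lifr* (chr15:7090614-7197489, plus strand), the LIF receptor, was at 81.2, 147 and 83.8 CPM against 118, 85.8 and 112 CPM. The highest library, Gli3+/+ replicate 2, and the lowest, Gli3+/+ replicate 1, were of the same genotype, and the log2 fold change was 0.01 ± 0.24 (SE; 95% interval −0.54 to 0.56).

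*Il6ra* (chr3:89864059-89913196, minus strand), the chain that gives a cell its response to IL-6 itself, had the lowest p of the members. It was counted at 1.79, 3.85 and 9.65 CPM in Gli3+/+ QSCs and at 1.70, 0.970 and 1.81 CPM in Gli3∆/∆ QSCs. Gli3+/+ replicate 3 was far above the rest, and Gli3+/+ replicate 1 lay within the range of the Gli3∆/∆ libraries. The means were 5.10 ± 4.08 and 1.49 ± 0.456 CPM (SD, n = 3 each), a log2 fold change of −1.77 ± 0.56 (SE; unadjusted p = 0.0115, adjusted p = 0.446, edgeR quasi-likelihood test), and the adjusted p was 0.0532 by DESeq2. Without Gli3+/+ replicate 3 the log2 fold change was −0.93 (adjusted p = 0.652 by edgeR).

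*Osmr* (chr15:6813577-6874969, minus strand), the oncostatin M receptor, lies 215.6 kb from *Lifr*. It was at 13.7, 30.5 and 32.1 CPM in Gli3+/+ and at 19.8, 13 and 14.1 CPM in Gli3∆/∆ QSCs. Gli3+/+ replicates 2 and 3 were the highest of all, but Gli3+/+ replicate 1 lay between the Gli3∆/∆ values. The log2 fold change was −0.70 ± 0.31 (SE; unadjusted p = 0.0508, adjusted p = 0.702, edgeR quasi-likelihood test), with a 95% interval from −1.41 to 0.00. Without Gli3+/+ replicate 3 it was −0.50, and without Gli3+/+ replicate 1 it was −1.0 (adjusted p = 0.173 by edgeR).

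Of the signal carriers, *Jak2* (chr19:29251828-29313080, plus strand), the kinase bound by several of these receptors, varied little. It stood at 54.7, 52.8 and 41.1 CPM in Gli3+/+ and at 44.8, 47.4 and 47.9 CPM in Gli3∆/∆ QSCs, with all 3 Gli3∆/∆ values inside the Gli3+/+ range. Its log2 fold change was −0.09 ± 0.15 (SE), with a 95% interval from −0.42 to 0.24.

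*Stat3* (chr11:100885098-100939540, minus strand) was at 178, 245 and 338 CPM in Gli3+/+ QSCs and at 256, 159 and 181 CPM in Gli3∆/∆ QSCs. The groups overlapped, with Gli3+/+ replicate 3 again the highest library. The means were 254 ± 80.2 and 199 ± 50.9 CPM (SD, n = 3 each), and the log2 fold change was −0.35 ± 0.26 (SE; adjusted p = 0.880, edgeR quasi-likelihood test). Without Gli3+/+ replicate 3 it was −0.09, without Gli3+/+ replicate 1 it was −0.55 and without Gli3∆/∆ replicate 1 it was −0.58. The end of *Stat3* overlaps that of *Stat5a*, on the other strand, by 72 bases, and the library protocol keeps the strand.

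*Socs3* (chr11:117966079-117970047, minus strand) was the only member whose genotypes separated. It was counted at 2417, 2432 and 2310 CPM in Gli3+/+ QSCs and at 1868, 2016 and 1989 CPM in Gli3∆/∆ QSCs. Every Gli3∆/∆ library lay below every Gli3+/+ library. The means were 2386 ± 66.3 and 1958 ± 78.7 CPM (SD, n = 3 each), a ratio of 0.820. The difference did not pass the test over all genes: the log2 fold change was −0.29 ± 0.12 (SE; 95% interval −0.56 to −0.01; unadjusted p = 0.0428, adjusted p = 0.674, edgeR quasi-likelihood test), and the adjusted p was 0.476 by DESeq2. Leaving out each library in turn gave log2 fold changes from −0.31 to −0.25. The 12 genes of the dissociation response, early genes that rise while muscle is digested, had a lower mean in Gli3∆/∆ QSCs in 11 cases, where 13547 of all 25093 genes did. Their median log2 fold change was −0.11. Of the 12 genes, 1 did not overlap and 0 had an unadjusted p under 0.05 by edgeR, where 13% and 7.11% of all genes did. Their part in the *Socs3* difference was not tested.

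**Figure D2:**
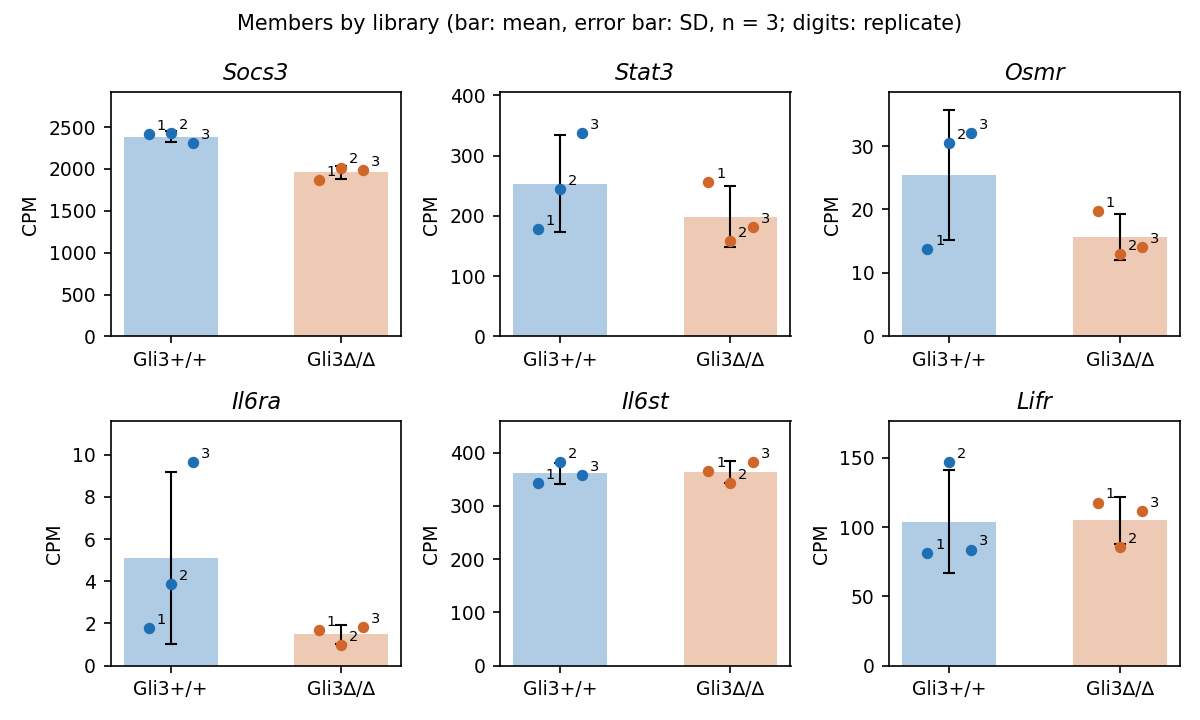
CPM of the inhibitor, the transcription factor and 4 receptor chains in each QSC library, with bars for group means from 0, error bars for the SD (n = 3) and digits for the replicate. The genotypes separate for *Socs3* (2310 to 2432 against 1868 to 2016 CPM) and overlap in the 5 other panels, where Gli3+/+ replicate 3 is highest for *Stat3*, *Osmr* and *Il6ra*.

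Across the 6 libraries *Stat3*, *Osmr* and *Il6ra* moved side by side, with Pearson correlations of log2(CPM + 1) of 0.91 for *Stat3* with *Osmr*, 0.871 for *Stat3* with *Il6ra* and 0.874 for *Osmr* with *Il6ra*. *Lif* and *Lifr* ran opposite to each other, at −0.966. These values describe 6 libraries of 2 genotypes and share their depth and scaling. The correlations among *Stat3*, *Osmr* and *Il6ra* rest in part on Gli3+/+ replicate 3. That of *Lif* with *Lifr* rests in part on Gli3+/+ replicate 2, which was lowest for *Lif* and highest for *Lifr*. Among 9117 protein-coding genes with a mean of at least 10 CPM, those most like *Socs3* were *Pygb* (0.9945), *En1* (0.9827) and *Brd2* (0.9791). Those most like *Stat3* were *Nrd1* (0.9948), *Rhbdf2* (0.9900) and *Dennd4c* (0.9893), and those most like *Osmr* were *Ptpn1* (0.9875), *Pigm* (0.9810) and *Mlxip* (0.9805). With so many genes and 6 libraries, high values of this kind arise for many genes, and they are given as a description.

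The rest of the pathway was followed in lists of 64 genes by role, of which 63 were measured and *Il27* was not. None was called by edgeR or by DESeq2, against the 0.351% and 1.64% of all genes given above, and 5 of 63 had an unadjusted p under 0.05, where 7.11% of all genes did. The mean was lower in Gli3∆/∆ QSCs for 41 and higher for 22, and the median log2 fold change was −0.10. The groups did not overlap for 10 of the 63, 9 of them lower in Gli3∆/∆, against the 13% and 6.57% of all genes above.

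Of the 7 other ligands and ligand subunits, 4 had lower means in Gli3∆/∆ QSCs. *Cntf*, ciliary neurotrophic factor, a product of Schwann cells in nerve, stood at 2.04, 1.75 and 3.20 CPM in Gli3+/+ and at 0.668, 0.731 and 1.30 CPM in Gli3∆/∆ QSCs. The groups did not overlap, and the log2 fold change of −1.37 ± 0.38 (SE) had the lowest adjusted p of the lists (0.357 by edgeR and 0.0602 by DESeq2). The Schwann cell markers moved with it, as given above, and their part was not tested. *Clcf1*, which encodes cardiotrophin-like cytokine, was far more abundant, at 415, 332 and 562 CPM against 300, 313 and 215 CPM. Its groups did not overlap, with a log2 fold change of −0.66 ± 0.22 (SE; adjusted p = 0.499 by edgeR). Per kilobase, *Clcf1* (115 CPM per kilobase) exceeded each of the 3 member ligands in Gli3+/+ QSCs. *Ctf2*, a cardiotrophin gene, was at 1.41 ± 0.400 and 1.94 ± 0.349 CPM.

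Of the 6 other receptor chains, *Il11ra1*, the chain for IL-11, was the only gene of the lists that was higher in Gli3∆/∆ without overlap. It stood at 135, 193 and 131 CPM in Gli3+/+ and 208, 201 and 252 CPM in Gli3∆/∆ QSCs. Each Gli3∆/∆ library was above each Gli3+/+ library, with a log2 fold change of 0.53 ± 0.18 (SE; adjusted p = 0.535, edgeR quasi-likelihood test). Its ligand gene *Il11* was at 1.10 ± 0.331 and 0.751 ± 0.179 CPM. *Lepr*, the leptin receptor, had non-overlapping groups at 13.2 ± 1.10 and 10.8 ± 1.04 CPM, and its log2 fold change was −0.29 (edgeR adjusted p = 0.812). *Csf3r*, a receptor of neutrophils, was below 1 CPM on average in both genotypes.

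Of the 3 other kinases, *Jak3* was at 2.16 ± 0.256 and 1.45 ± 0.0553 CPM without overlap and did not pass the test (adjusted p = 0.712 by edgeR), while *Jak1* (207 ± 58.3 and 183 ± 19.3 CPM) and *Tyk2* (27.0 ± 4.84 and 28.9 ± 1.97 CPM) overlapped. The 6 other STAT genes were the list with the most higher means, 5 of 6, and its median log2 fold change was 0.18. *Stat5a* was at 45.5 ± 5.52 and 52.6 ± 8.64 CPM with overlapping groups, and *Stat4* was at the level of single counts.

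Of the 11 other SOCS and PIAS inhibitors, 8 had lower means and 3 higher means in Gli3∆/∆ QSCs. *Socs4* was at 46.2, 42.6 and 42.7 CPM in Gli3+/+ and 35.8, 36.9 and 35.6 CPM in Gli3∆/∆ QSCs, so that the groups did not overlap. Its log2 fold change of −0.28 ± 0.12 (SE; unadjusted p = 0.0464, adjusted p = 0.687, edgeR quasi-likelihood test) was of the same size as that of *Socs3*. *Cish* and *Socs2*, which are induced mainly through STAT5, varied between libraries of the same genotype. *Cish* was at 2.76, 5.97 and 45.7 CPM against 8.61, 3.25 and 1.53 CPM, and *Socs2* at 66.4, 129 and 283 CPM against 110, 85.1 and 105 CPM. Gli3+/+ replicate 3 was again the highest for both, and without it the log2 fold changes were 0.02 for *Cish* and 0.03 for *Socs2*, in place of −2.02 and −0.67.

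Among 20 genes known to respond to STAT3 in other cells, 17 had lower and 3 higher means in Gli3∆/∆ QSCs. *Fos* is counted both here and among the dissociation response genes. Over all genes, 13547 of 25093 had lower means. The median log2 fold change of the list was −0.16, beside −0.03 over all genes. Of the 20, 1 had an unadjusted p under 0.05 and 3 did not overlap, where 7.11% and 13% of all genes did. *Serpina3n*, a protease inhibitor, was at 2.63 ± 0.620 and 1.52 ± 0.497 CPM, with a log2 fold change of −0.79 ± 0.33 (SE; adjusted p = 0.677 by edgeR). *Junb*, an AP-1 factor, was at 4050 ± 300 and 3207 ± 605 CPM (adjusted p = 0.758 by edgeR). The kinase gene *Pim1* was at 115, 115 and 121 CPM in Gli3+/+ and 125, 51.4 and 69.3 CPM in Gli3∆/∆ QSCs, where Gli3∆/∆ replicate 1 was the highest of all 6 (adjusted p = 0.798 by edgeR). The phosphatases and the adaptors with the shedding proteases, 5 genes each, held no gene whose groups did not overlap. *Ptpn1*, which dephosphorylates JAK kinases, was at 156 ± 32.6 and 124 ± 13.2 CPM, *Gab1* at 172 ± 24.2 and 189 ± 6.74 CPM and *Adam10* at 89.9 ± 9.96 and 97.6 ± 2.52 CPM. The other genes named by rule, *Dusp22*, *Ptpn6* and *Grb2*, had adjusted p between 0.903 and 0.946 by edgeR.

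**Figure D3:**
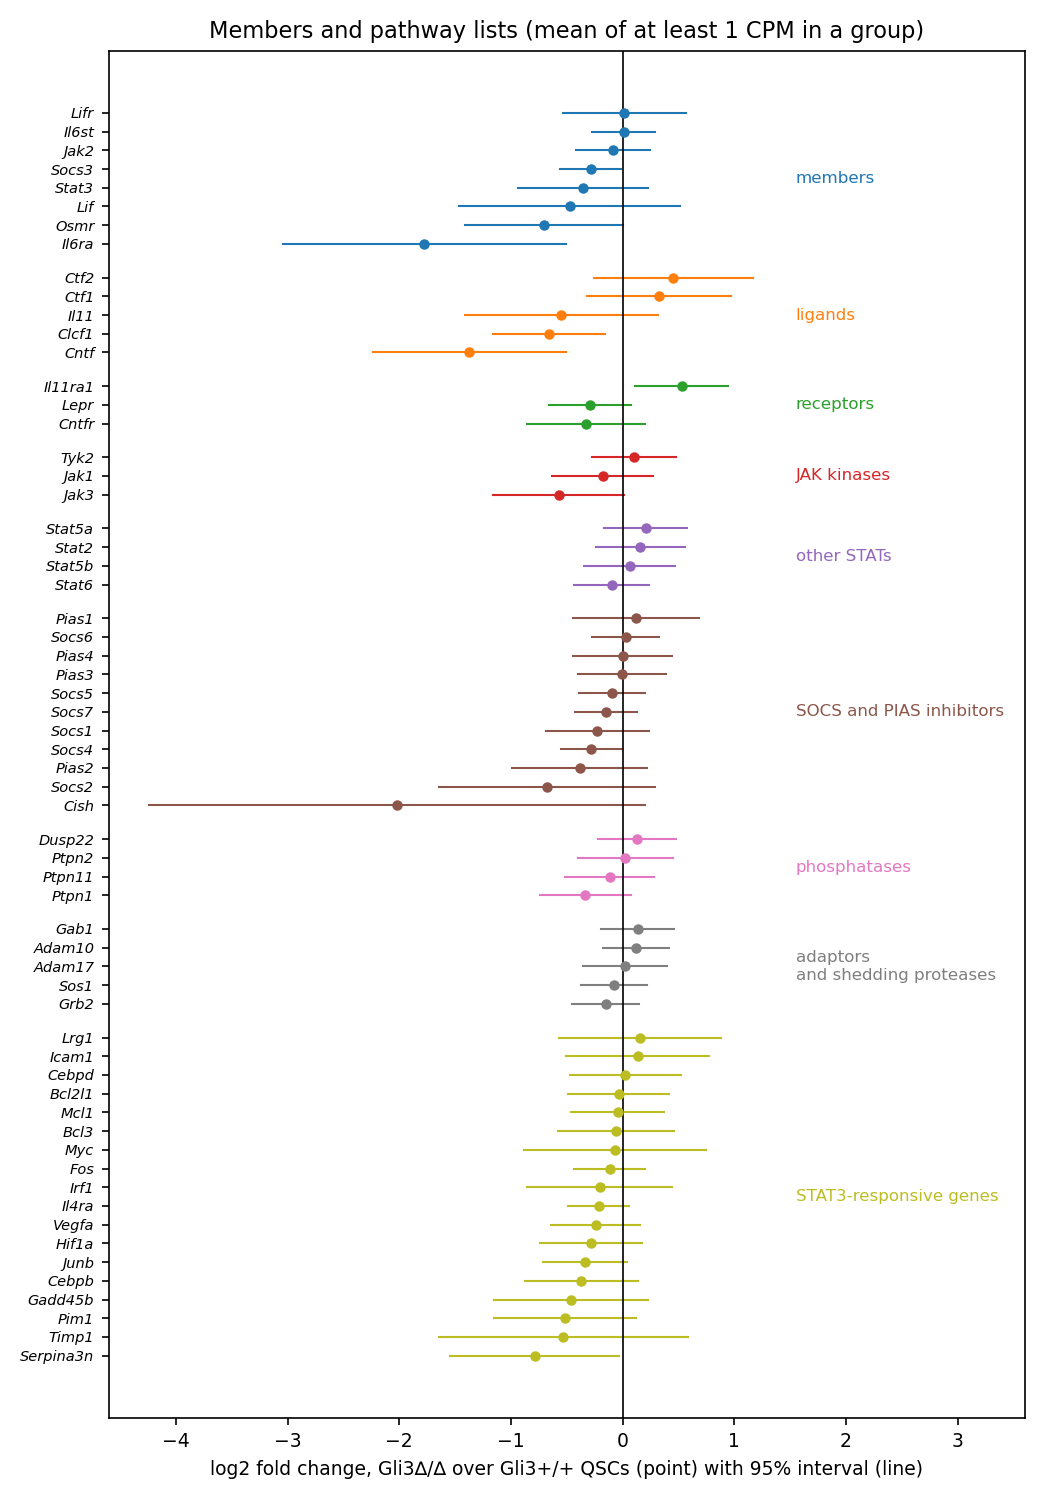
Log2 fold change of Gli3∆/∆ over Gli3+/+ QSCs (points) with its 95% interval (lines) for members and pathway-list genes with a mean of at least 1 CPM in either genotype (*Il6* and *Osm* are below it, and some list genes are not shown), coloured by list. Intervals of *Il6ra* (−1.77), *Cntf* (−1.37), *Clcf1* (−0.66) and *Il11ra1* (0.53) lie to one side of 0 before adjustment, those of *Socs3*, *Socs4* and *Serpina3n* end just short of 0, and no gene shown passed the adjusted threshold.

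The question of how the members differ between quiescent and activated cells could be met only by description. The authors' mean of normalised counts is the same in each of their 4 comparison tables and was therefore taken to run over all 12 libraries, of which the QSC libraries are 6. On that reading, its ratio to the mean of these 6 is larger the more of a gene's counts lie in the ASC libraries. It also has a lower bound, because the QSC libraries are part of both means. Genes with few ASC counts therefore crowd near the same low value. The ratio has no error and no test, it combines both genotypes, and because the scale of the authors' mean against the QSC counts is not known it is read against all genes: over 21647 genes with a mean QSC count of at least 5, the median was 0.863, percentile 1 was 0.449 and percentile 99 was 24.0.

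The ligands *Osm* and *Il6* stood at one end, followed by the receptor *Il6ra*, and *Socs3* stood at the other. *Osm* had an authors' mean of 165 against 6.34 in QSCs, a ratio of 26.0 that was above 99.1% of genes. *Il6* followed with 183 against 39.2, a ratio of 4.66 (percentile 95.9), and *Il6ra* with 555 against 176, a ratio of 3.15 (percentile 94.0). Beside them, 8 of 8 macrophage and monocyte markers had ratios between 4.87 and 138, with a median of 57.0, and 5 of 5 neutrophil markers between 0.698 and 1.99. The 4 markers of myogenic commitment and cycling were also high, between 2.11 and 75.5 with a median of 28.7. The 5 Schwann cell markers lay between 1.35 and 6.52. *Il6* and *Il6ra* were below every macrophage and monocyte marker. The part of macrophages, or of any other cell type, in the ratios of *Osm*, *Il6* and *Il6ra* was not tested.

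*Socs3* had an authors' mean of 54993 against 116230 in QSCs, a ratio of 0.473 (percentile 2.79). The 12 genes of the dissociation response had ratios between 0.461 and 0.535, and the 9 satellite cell markers between 0.453 and 1.22. *Socs3* thus lay near the low end, where *Pax7* (0.494) and *Calcr* (0.453) also lay, and the ratio does not tell such genes apart. *Lifr* (0.576, percentile 12.7) and *Stat3* (0.674, percentile 26.9) were also below the median of all genes. *Il6st* (0.755), *Jak2* (0.789), *Lif* (0.851) and *Osmr* (0.865) lay near it, between percentiles 37.9 and 50.2. The receptor chains therefore differed in this ratio, with *Il6ra* high, *Osmr* and *Il6st* near the middle and *Lifr* low.

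In the lists, high ratios were found for *Timp1* (30.4), *Ptpn6* (21.5), *Csf3r* (6.97) and *Serpina3n* (5.75), and low ones for *Fos* (0.486), *Il11ra1* (0.494), *Junb* (0.497) and *Clcf1* (0.510). The ligand *Clcf1* was thus at the opposite end from *Osm* and *Il6*.

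**Figure D4:**
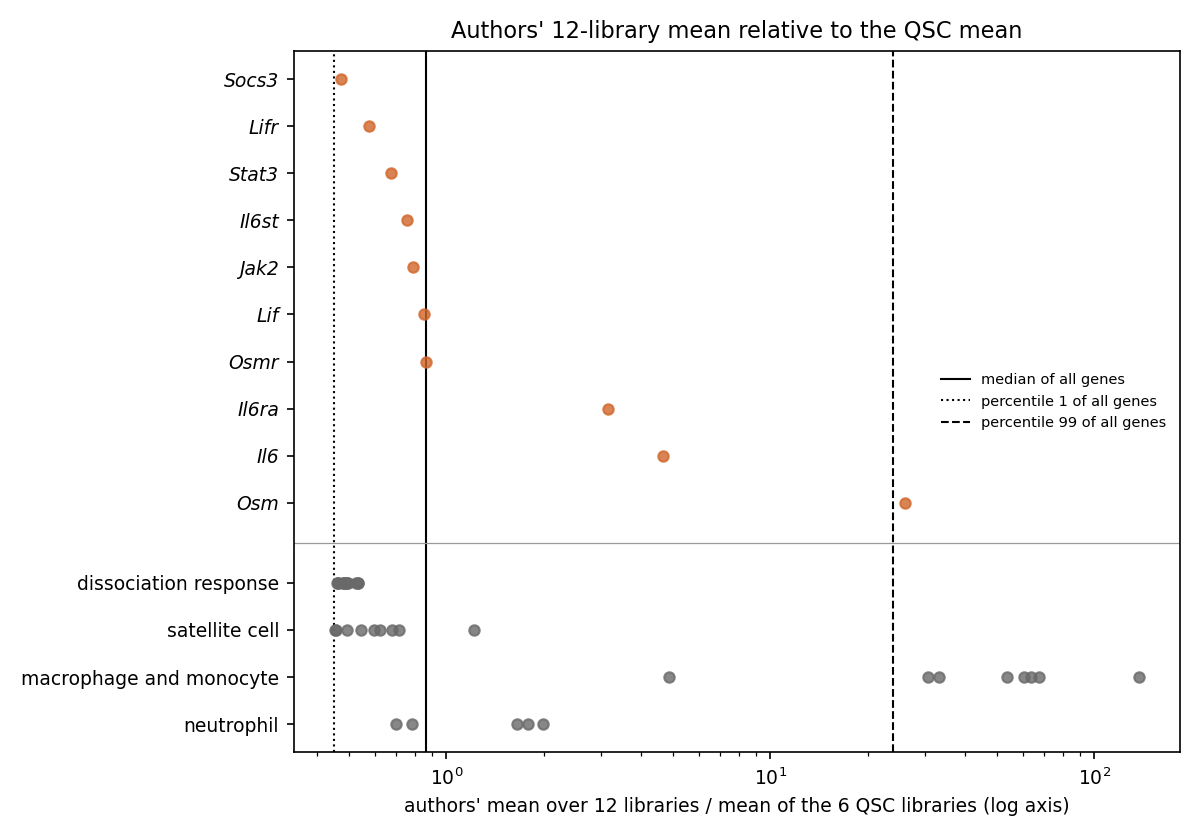
Ratio of the authors' mean over 12 libraries to the mean of the 6 QSC libraries on a log axis, for each member (orange) and for the genes of 4 marker lists (grey), with vertical lines at the median (0.863) and percentiles 1 and 99 of all genes. *Socs3* (0.473) lies near the low end, as do the dissociation response genes and satellite cell markers such as *Pax7* (0.494). *Osm* (26.0) lies within the range of the macrophage and monocyte markers, and also within that of the myogenic commitment and cycling markers (2.11 to 75.5, not shown). Between *Socs3* and *Osm*, 6 of the other members lie from 0.576 to 0.865.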

How the data were processed

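The authors made the RNA-sequencing count table from 20 ng of RNA per sample, with a poly(A) protocol that keeps the strand. Salmon matched reads to the GENCODE vM19 transcripts of GRCm38 and tximport summed them to genes. They deposited estimated counts of 25093 genes, not normalised, after keeping genes with at least 5 reads in at least 2 samples. Reads shared by similar genes are split by salmon, so 49.2% of the values were not whole, and they were rounded. The 4 deposited comparison tables hold the authors' log2 fold changes and p-values, which were not used. The deposited mean signal of these tables, the authors' mean of size-factor-scaled counts, taken to run over 12 libraries because it is the same in the 4 tables, served for the ratio only, against the mean TMM-scaled count of the QSC libraries.

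Of 12 library columns, the 6 QSC columns match sample titles. The other 6 columns, for ASCs, show no genotype or sample and were not used, and 2 ASC samples have titles that go against their genotype labels. The ASC comparisons, and whether *Gli3* deletion acted differently in ASCs and QSCs, were therefore not tested, and the planned fit over all libraries became a fit of 6.

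edgeR 4.0.16 (R 4.3.3; TMM, quasi-likelihood F test, Benjamini-Hochberg over all genes, no added filter) gave the main results. A call needed an adjusted p under 0.05 together with a change of 1.2-fold or more, the study's thresholds. Standard errors are the absolute log2 fold change over the square root of F. Alternatives were DESeq2 1.42.0, DESeq2 size factors, filterByExpr, a block for the replicate number, calls without a minimum fold, leaving out each library, and another gene length. Totals of 39556784 to 65750131 counts set the precision. Exact tests of 3 against 3 cannot go below p = 0.1. The tests were checked on simulated counts.

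Lengths and positions are from GENCODE vM21 on the same build, where 96.3% of identifiers carry the same version. All members were named. From each pathway list the text names called genes or, with fewer than 3 called, those of lowest p up to 3, and for *Socs3*, *Stat3* and *Osmr* the 3 genes of highest correlation. Other names were chosen after their values were seen, and results for some list genes are not reported here. The members and lists were chosen with earlier results of these data known.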

Additional observations from a re-analysis of the deposited data

How the results depend on the processing

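No member and no gene of the pathway lists was called under any of the 11 alternative settings of the genotype test, and the number of called genes over the whole table was 88 by edgeR with TMM, 384 by DESeq2, 90 with DESeq2 size factors, 85 with filterByExpr, 79 with the replicate number as a block and 58 to 103 with a library left out, lowest without Gli3∆/∆ replicate 3. The replicate numbers did not pair the libraries, since the deviations of same-numbered libraries correlated at −0.276, −0.0196 and −0.0642, and the block changed no call of a member. Differently numbered libraries of the 2 genotypes correlated between −0.241 and 0.329, and a pairing under another numbering was not tested. Leaving out 1 library turned the sign of 3 members whose change was near 0: log2 fold changes ranged from −0.36 to 0.56 for *Il6*, from −0.028 to 0.059 for *Il6st* and from −0.14 to 0.36 for *Lifr*. In 91 of 99 recalculated member values the direction and the side of the threshold were kept. The order of levels was the same with DESeq2 size factors and kept 6 of 10 places with the longest transcript as length. The median log2 fold change of all genes stayed between −0.04 and −0.003. *Il6* and *Osm* had at most 73 and 14 counts in a library.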
